A study of Mus musculus with 2 samples.

Results

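CpG methylation of IAPLTR2, IAPLTR2a and IAPLTR2b long terminal repeats (LTRs) was compared between sperm and tail DNA of a mouse. The LTRs were taken from the study's supplementary list of IAP fragments by their repeat name (IAPLTR2_Mm, here IAPLTR2; IAPLTR2a; IAPLTR2b), as solo LTRs or as the 5' or 3' LTR of an element with an internal part. Of 271 such LTRs, 269 had at least 20 methylation calls in both libraries and were measured: 117 of 117 IAPLTR2, 53 of 53 IAPLTR2a and 99 of 101 IAPLTR2b copies. They belonged to 765 measured LTRs of 1042 in the rows of the list used here, which cover chromosome 1 and the start of chromosome 10. The 2 copies that were not measured were solo IAPLTR2b fragments of 32 and 46 bp with 0 calls in both libraries. At the limit of 20 calls, the thinnest copies kept were a solo IAPLTR2 LTR with 38 sperm calls and a solo IAPLTR2b LTR with 39 sperm calls.

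The data come from TEPBAT, in which bisulfite-treated DNA is copied with random primers and then amplified with a primer inside the IAP LTR. Sperm and tail DNA came from the same adult male C57BL/6J mouse, and each tissue gave 1 library. A test on calls therefore compares 2 libraries and not 2 tissues, and it cannot tell tissue from library. The sperm library held 95744413 calls and the tail library 55366653, of which 3317373 sperm calls and 1870877 tail calls lay in the 269 LTRs.

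IAP elements are mouse endogenous retroviruses. Each full element is flanked by a pair of LTRs that were identical when it inserted, and the LTR carries the promoter and the polyadenylation signal. Recombination between the pair leaves a solo LTR without the internal part. IAP LTRs are among the sequences that mouse cells keep heavily methylated, and IAPs are known for keeping methylation through phases of development in which most of the genome loses it. Subfamilies such as IAPLTR2, IAPLTR2a and IAPLTR2b are defined by differences in the LTR sequence.

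Nearly all calls came from the ends of the LTRs, in some copies from 1 end only. Primer IAP-BS1 lies near the start of the LTR and reads outward through its first bases. Primer IAP-BS2 lies near the end and reads outward through its last bases. The read ends of 1 LTR of each subfamily, the one with the most calls, are printed to show where the measured CpGs lie, with every CpG in capitals. IAP-BS2 is printed in its bisulfite-converted form.
primer IAP-BS2: ggtttttgaagatgtaagtaataaagtttt
IAPLTR2 3' LTR upstream end, chr1:17524818-17524923, minus strand: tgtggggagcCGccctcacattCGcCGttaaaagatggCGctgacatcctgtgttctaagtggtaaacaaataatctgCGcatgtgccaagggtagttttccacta
IAPLTR2 3' LTR downstream end, chr1:17524390-17524450, minus strand: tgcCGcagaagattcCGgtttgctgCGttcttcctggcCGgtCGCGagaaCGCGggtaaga
IAPLTR2a solo LTR upstream end, chr1:113145175-113145258, plus strand: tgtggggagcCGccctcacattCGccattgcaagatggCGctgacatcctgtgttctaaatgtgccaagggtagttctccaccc
IAPLTR2a solo LTR downstream end, chr1:113145503-113145562, plus strand: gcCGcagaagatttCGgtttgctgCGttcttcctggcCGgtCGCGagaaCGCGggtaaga
IAPLTR2b solo LTR upstream end, chr1:7867763-7867868, minus strand: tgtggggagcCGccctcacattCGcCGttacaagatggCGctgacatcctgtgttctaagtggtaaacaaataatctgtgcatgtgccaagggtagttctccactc
IAPLTR2b solo LTR downstream end, chr1:7867551-7867609, minus strand: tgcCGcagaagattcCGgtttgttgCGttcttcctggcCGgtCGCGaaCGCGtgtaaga
The genomic bases are those of the mm10 build (RefSeq GRCm38.p6), in the direction of the LTR. The IAPLTR2 lines belong to the 3' LTR at chr1:17524390-17524923, which had 93435 sperm and 41892 tail calls. The IAPLTR2a lines belong to the solo LTR at chr1:113145175-113145562, with 171470 sperm and 57026 tail calls. The IAPLTR2b lines belong to the solo LTR at chr1:7867551-7867868, with 136451 sperm and 49439 tail calls. All 3 lie between genes in the GENCODE M21 annotation.

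The amplified design set where calls fell. In sperm, 20.7% of the calls in these LTRs lay at the upstream end and 79.3% at the downstream end, and in tail 34.4% and 65.5%. Positions outside the read ends, or on the strand that the primers do not read, held 0.0405% of sperm calls and 0.122% of tail calls. These made up 9.02% of covered positions in sperm and 14.4% in tail, and most had under 5 calls. Since the level of an LTR is the plain mean over its covered CpG positions, such thin positions count in it as much as deep ones. Levels over the positions with 5 or more calls in sperm and in tail, called well-covered positions here, are therefore given beside it where they differ.

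The copies differed in sequence. IAPLTR2 LTRs had a median length of 468 bp and 22 CpGs, IAPLTR2a LTRs 396 bp and 20 CpGs, and IAPLTR2b LTRs 325 bp and 16 CpGs. Median divergence from the subfamily consensus was 6.5%, 3.8% and 4.6%. A site with at most 4 mismatches to IAP-BS1 was found in 265 of the 269 LTRs and one for IAP-BS2 in 266. Of IAPLTR2 copies, 76 of 117 held 2 or more IAP-BS2 sites, with up to 6, as did 33 of 53 IAPLTR2a copies. None of the 99 IAPLTR2b copies did.

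The LTRs were heavily methylated in both libraries. The median level was 0.864 in sperm and 0.895 in tail over the 269 LTRs. It was 0.859 in sperm and 0.891 in tail for IAPLTR2, 0.873 and 0.898 for IAPLTR2a, and 0.864 and 0.895 for IAPLTR2b, so the 3 subfamilies lay within 0.02 of each other in either library. No LTR was at or under 0.2 in either library. The lowest sperm level was 0.502 and the lowest tail level 0.368. By comparison the IAPLTR2a2 LTRs, 133 copies, had a median of 0.821 in sperm and one of 0.834 in tail. The 300 IAPLTR1 and IAPLTR1a LTRs had 0.893 and 0.918. On well-covered positions the IAPLTR2a2 median rose to 0.846 in sperm and 0.890 in tail. That of IAPLTR1 and IAPLTR1a was there 0.894 and 0.922, and that of the 269 LTRs 0.872 and 0.904. The gap between IAPLTR2a2 and the 269 LTRs was thus smaller there, above all in tail. These differences between subfamilies were not tested.

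A medium level, at or under 0.8, was more common in sperm. In sperm 75 LTRs (27.9%) and in tail 34 LTRs (12.6%) were at or under 0.8. Sperm lay below tail in 170 of 269 LTRs (63.2%), against 62.6% of all 765 LTRs. Over well-covered positions, 56 LTRs were at or under 0.8 in sperm and 15 in tail. With the LTR intervals shortened by 20 bp the counts were closer, at 81 in sperm and 60 in tail.

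In sperm, medians differed more by LTR type than by subfamily. In tail this held for the plain mean only. Over well-covered positions the tail medians of IAPLTR2, IAPLTR2a and IAPLTR2b were 0.900, 0.916 and 0.909. Solo LTRs had median levels of 0.904 in sperm and 0.897 in tail (n = 138). The 5' LTRs had 0.827 in sperm and 0.872 in tail (n = 66), and the 3' LTRs 0.847 and 0.897 (n = 65). Over well-covered positions solo LTRs had a median of 0.919 in sperm and 0.910 in tail. The 5' LTRs had 0.818 and 0.899 on these positions, and the 3' LTRs 0.858 and 0.902. There sperm was below tail in 62 of 138 solo LTRs (44.9%), 54 of 66 5' LTRs (81.8%) and 57 of 65 3' LTRs (87.7%). Sperm was thus below tail mostly in LTRs that flank an internal part. The same held in each subfamily: sperm was below tail in 18 of 53 solo, 25 of 33 5' and 27 of 31 3' IAPLTR2 LTRs, in 14 of 27, 12 of 13 and 11 of 13 IAPLTR2a LTRs, and in 30 of 58, 17 of 20 and 19 of 21 IAPLTR2b LTRs. IAPLTR1 and IAPLTR1a LTRs showed the split too, with 7 of 22 solo, 109 of 139 5' and 94 of 139 3' LTRs lower in sperm. IAPLTR2a2 LTRs did not show it in the same way, with 30 of 53 solo (56.6%), 31 of 43 5' (72.1%) and 21 of 37 3' LTRs (56.8%) lower in sperm.

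**Figure D1:**
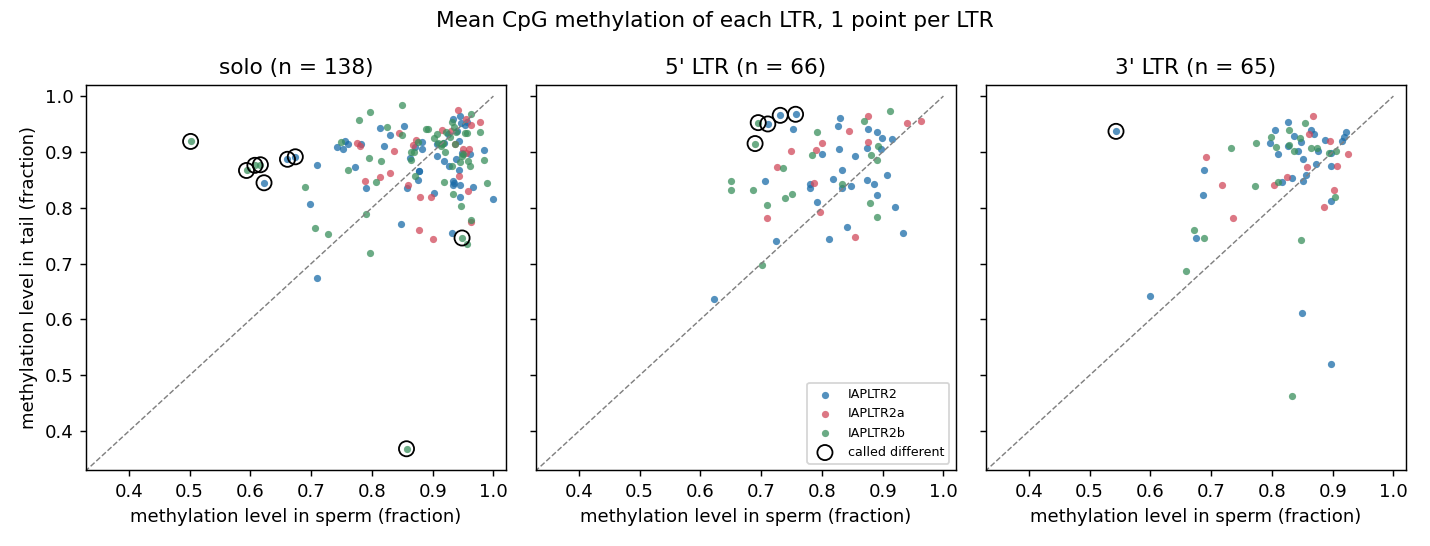
Mean CpG methylation level of each of the 269 LTRs as a fraction, in sperm (horizontal axis) against tail (vertical axis), in panels for solo LTRs, 5' LTRs and 3' LTRs. Colours give the subfamily, open circles mark LTRs called different and the dashed line marks equal levels; most 5' and 3' LTRs lie above the line, and solo LTRs lie on both sides of it.

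Some measures moved with LTR type. Median divergence was 3.85% in solo, 4.85% in 5' and 5.2% in 3' LTRs. The share of calls from the upstream end was 20.3% in sperm and 34.1% in tail for solo LTRs, 29.8% and 48.1% for 5' LTRs. In 3' LTRs it was 15.9% and 25.9%. The upstream end of a 3' LTR and the downstream end of a 5' LTR face the internal part, where elements resemble each other, and read pairs with several hits had been discarded. The part of these measures, and of pairs placed in the wrong copy, in the difference between types was not tested.

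Few single LTRs were called different between the libraries, where a call needed a difference of at least 0.2 besides a small adjusted p. Several LTRs without a call had a very small adjusted p and a smaller difference. Fisher's exact test on the summed methylated and unmethylated calls of an LTR, with Benjamini-Hochberg adjustment over all 765 LTRs, an adjusted p under 0.05, a difference in level of at least 0.2 and the same sign from summed calls, called 13 of 269 LTRs (4.83%) lower in sperm, against 5.62% of all LTRs. It called 2 LTRs (0.743%) lower in tail, against 1.18% of all LTRs. The shares were near those of all LTRs. IAPLTR2 had 7 copies called lower in sperm, IAPLTR2a 0 and IAPLTR2b 6. By type, 7 solo, 5 5' and 1 3' LTRs were lower in sperm, and the 2 LTRs lower in tail were solo IAPLTR2b copies. A call is 1 CpG in a PCR read, and reads had no molecular identifiers. Calls summed over an LTR count several CpGs of the same read, so they are not independent molecules. The p-values and intervals cover counting error only, with calls taken as if independent. With levels over well-covered positions, 16 of the 269 LTRs (5.95%) were called lower in sperm, against 5.88% of all LTRs, and 1 (0.372%) lower in tail, against 0.915% of all LTRs. Of the 13, 12 were also called on those positions and 8 when the level itself was taken from summed calls.

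Among the 13 LTRs called lower in sperm, the largest difference by the plain mean was in a solo IAPLTR2b LTR at chr1:40211509-40211810 (minus strand), 13270 bp from the start of Il1r1, which encodes an interleukin-1 receptor. Its level was 0.502 ± 0.157 in sperm and 0.919 ± 0.0565 in tail (mean ± SD over 7 CpG positions in each). Of its calls, 4380 of 7897 were methylated in sperm (0.555, 95% Wilson interval 0.544 to 0.566) and 5684 of 6209 in tail (0.915, 0.908 to 0.922). All 7 CpGs were called lower in sperm by Fisher's exact test. Its ends are printed since every measured CpG in them differed.
IAPLTR2b solo LTR upstream end, chr1:40211705-40211810, minus strand: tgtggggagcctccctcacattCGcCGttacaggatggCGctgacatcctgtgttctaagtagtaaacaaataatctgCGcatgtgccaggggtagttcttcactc
IAPLTR2b solo LTR downstream end, chr1:40211509-40211551, minus strand: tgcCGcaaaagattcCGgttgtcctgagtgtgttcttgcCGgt
At the upstream end the CpGs at bases 24, 27, 40 and 80 were at 0.233, 0.442, 0.445 and 0.455 in sperm and at 0.813, 0.896, 0.906 and 0.914 in tail, the first on 43 sperm and 155 tail calls. At the downstream end the 3 CpGs were at 0.652, 0.683 and 0.602 in sperm and at 0.974, 0.961 and 0.967 in tail. Both ends were thus low in sperm, the upstream end more so.

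The 3' IAPLTR2 LTR at chr1:31473419-31473852 (plus strand, between genes) followed, with a level of 0.543 ± 0.314 over 17 positions in sperm and 0.937 ± 0.0744 over 16 positions in tail. Its 7 downstream CpGs carried nearly all of the calls.
IAPLTR2 3' LTR downstream end, chr1:31473793-31473852, plus strand: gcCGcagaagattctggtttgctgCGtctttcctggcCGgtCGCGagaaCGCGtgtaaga
In the order of the sequence these CpGs were at 0.768, 0.185, 0.437, 0.477, 0.152, 0.528 and 0.441 in sperm and at 0.976, 0.858, 0.952, 0.830, 0.899, 0.962 and 0.824 in tail. All 7 were called lower in sperm, and their mean was 0.427 in sperm and 0.900 in tail, which over well-covered positions was the larger difference of these 2 LTRs. The 5' LTR of this element, at chr1:31470038-31470471, was at 0.812 in sperm over 8 positions and 0.744 in tail over 16 positions, and was not called. On its 8 well-covered positions it was at 0.812 in sperm and 0.80 in tail. The low level in sperm was thus seen at 1 LTR of the pair.

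The other 3 LTRs named for their difference were IAPLTR2b copies. A solo LTR at chr1:3997837-3998160 was at 0.594 in sperm and 0.867 in tail, or 0.653 and 0.900 over well-covered positions, and 6 of its CpGs, all but 1 of them at the downstream end, were called lower in sperm. A solo LTR at chr1:125025107-125025410 was at 0.607 in sperm and 0.876 in tail over 7 positions each. A 5' LTR at chr1:118153207-118153524, 23018 bp from the start of the predicted gene Gm29106, was at 0.695 in sperm and 0.952 in tail, on 463 sperm and 262 tail calls. The remaining LTRs called lower in sperm had differences, sperm minus tail, of -0.261 to -0.211. All 13 lay between annotated genes, as did 209 of the 269 LTRs.

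The largest difference of a called LTR in either direction was one lower in tail, in a solo IAPLTR2b LTR at chr1:5108492-5108821 (minus strand), within Atp6v1h (a vacuolar ATPase subunit gene), in an intron and on the opposite strand. Only 3 positions at its upstream end were covered, and no IAP-BS2 site was found in it. Its level was 0.857 ± 0.0649 in sperm and 0.368 ± 0.231 in tail (SD over 3 positions).
IAPLTR2b solo LTR upstream end, chr1:5108716-5108821, minus strand: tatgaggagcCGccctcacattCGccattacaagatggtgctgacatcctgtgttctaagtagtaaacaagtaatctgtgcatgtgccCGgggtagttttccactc
The CpG at base 12 was methylated in 178 of 191 sperm calls and 167 of 349 tail calls, the CpG at base 24 in 50 of 61 and 66 of 126, and the CpG at base 90 in 340 of 415 and 85 of 825. At base 90 the level was 0.819 in sperm and 0.103 in tail. All 3 were called lower in tail. Of these LTRs it was the only one called lower in tail under each of the 3 ways of taking the level, namely the plain mean, the well-covered positions and the summed calls. It diverged by 14.2% from its consensus, while the median for IAPLTR2b was 4.6%.

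The other LTR called lower in tail, a solo IAPLTR2b at chr1:118739567-118739892, was at 0.948 in sperm and 0.746 in tail. Positions with 1 tail call each entered this mean, and over well-covered positions its level was 0.934 in sperm and 0.923 in tail, without a call. The thin positions made several low tail values. The 3' IAPLTR2 LTR at chr1:21584568-21585044, in an intron of the potassium channel gene Kcnq5, was at 0.896 in sperm and 0.520 in tail by the plain mean, but at 0.894 and 0.893 by summed calls. Its adjusted p from Fisher's exact test was 0.928.

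A 3' IAPLTR2 LTR on chromosome 10, at chr10:15179873-15180357 (minus strand), differed between its ends. Its level was 0.849 in sperm and 0.612 in tail, but it was not called, since summed calls gave 0.826 in sperm and 0.820 in tail (adjusted p = 0.549, Fisher's exact test). At its upstream end the CpG at base 80 was lower in sperm, with 0.638 in sperm and 0.867 in tail. At its downstream end all 5 CpGs were lower in tail, with 0.614, 0.980, 0.720, 0.988 and 0.983 in sperm and 0.170, 0.581, 0.0811, 0.566 and 0.0476 in tail. Most of its tail calls lay at the upstream end.

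**Figure D2:**
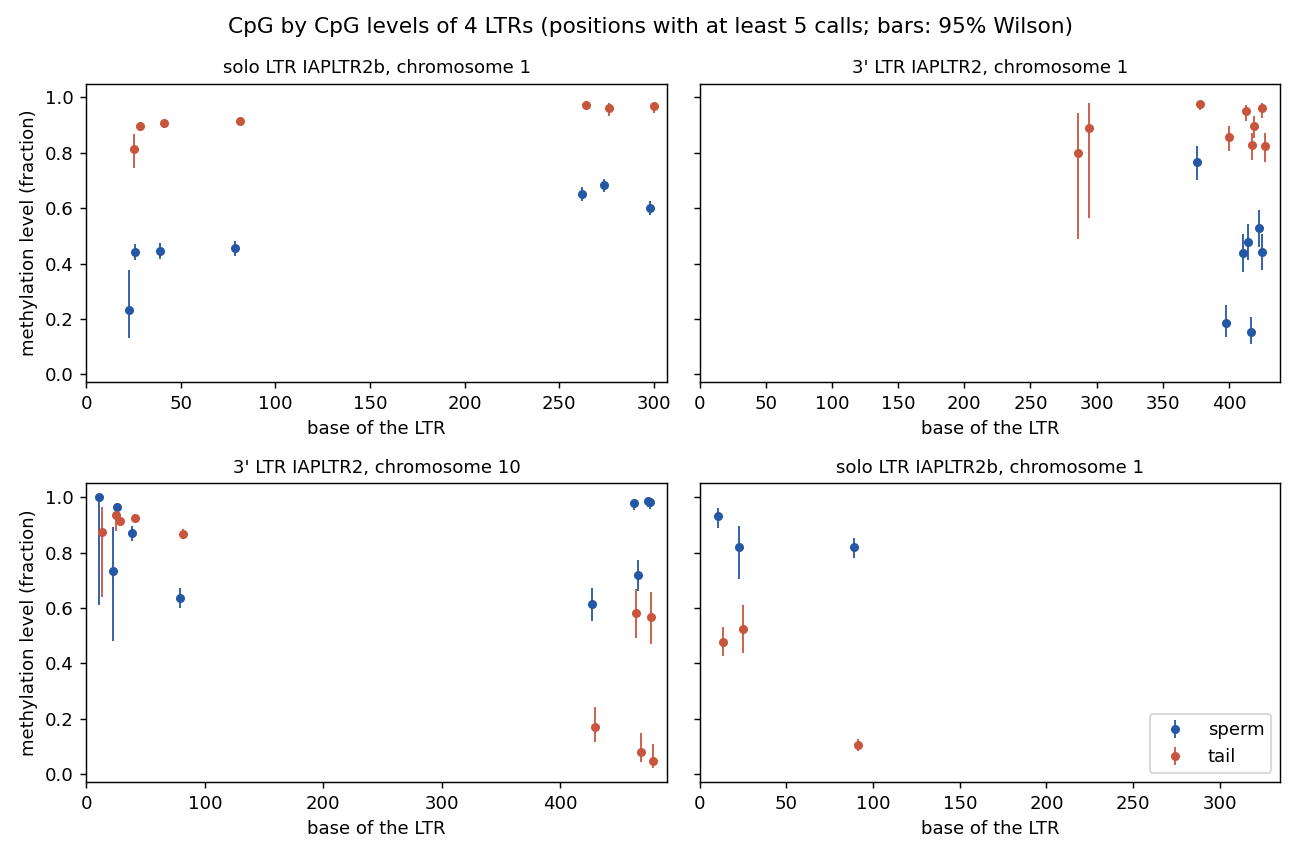
Methylation level as a fraction at each CpG position (base of the LTR on the horizontal axis) in sperm and tail for 4 LTRs, with 95% Wilson intervals and only positions with at least 5 calls. The upper panels show the solo IAPLTR2b and the 3' IAPLTR2 LTR with the largest deficits in sperm; the lower panels show the 3' IAPLTR2 LTR on chromosome 10, lower in tail at its downstream end, and the solo IAPLTR2b LTR in Atp6v1h, lower in tail at its 3 upstream positions.

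The 5' and 3' LTRs of an IAPLTR2 element, at chr1:113682227-113682666 and chr1:113679949-113680387, were low in both libraries by the plain mean. The 5' LTR was at 0.622 in sperm and 0.636 in tail, and the 3' LTR at 0.599 and 0.643. Over well-covered positions the 5' LTR was at 0.769 in sperm and 0.891 in tail, and the 3' LTR at 0.622 and 0.746, so that the 5' LTR was near the tail median of its type. In the 3' LTR the CpG at base 24 was at 0.0490 in sperm and 0.130 in tail. The downstream ends were higher, and summed calls gave 0.770 in sperm and 0.885 in tail for the 5' LTR and 0.753 and 0.862 for the 3' LTR.

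At the other extreme stood the 3 LTRs with the highest plain means, by the lower of their 2 levels, among those with 1000 or more calls in each library. A solo IAPLTR2b LTR at chr1:36049602-36049917, 18483 bp from the start of Hs6st1, a heparan sulfate sulfotransferase gene, was at 0.963 in sperm and 0.969 in tail. A 5' IAPLTR2a LTR at chr1:44438794-44439192 was at 0.963 in sperm and 0.956 in tail. A solo IAPLTR2a LTR at chr1:132410112-132410471, 7084 bp from the start of the kinase gene Dstyk, was at 0.954 in sperm and 0.959 in tail. Over well-covered positions the 5' IAPLTR2a LTR was at 0.946 in sperm and 0.956 in tail. The solo IAPLTR2a LTR was there at 0.929 in sperm and 0.959 in tail. The ends of the first 2 are printed for comparison with the low copies.
IAPLTR2b solo LTR upstream end, chr1:36049602-36049706, plus strand: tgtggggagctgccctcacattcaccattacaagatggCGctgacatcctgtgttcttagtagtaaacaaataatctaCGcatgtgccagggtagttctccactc
IAPLTR2b solo LTR downstream end, chr1:36049855-36049917, plus strand: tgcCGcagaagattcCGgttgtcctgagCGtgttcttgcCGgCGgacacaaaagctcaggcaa
IAPLTR2a 5' LTR upstream end, chr1:44438794-44438899, plus strand: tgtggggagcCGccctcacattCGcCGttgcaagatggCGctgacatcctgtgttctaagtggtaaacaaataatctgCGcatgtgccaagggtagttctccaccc
IAPLTR2a 5' LTR downstream end, chr1:44439135-44439192, plus strand: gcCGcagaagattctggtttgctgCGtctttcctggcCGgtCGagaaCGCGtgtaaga
The upstream end of the IAPLTR2b copy printed here held 2 CpGs, at bases 40 and 80, with levels of 0.971 and 0.974 in sperm and 0.949 and 0.939 in tail.

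Differences were more common at single CpGs than over whole LTRs. Of 2261 CpG positions that had 20 calls or more in each library, 230 were called lower in sperm, or 10.2%, the same share as the 10.2% of all 5599 positions. Lower in tail were 87, or 3.85%, against 3.86% of all positions. The median position had 687 calls in sperm and 371 in tail, and a level of 0.910 in sperm and 0.927 in tail. The 230 positions lay in 110 LTRs, of which 53 had 1 and 35 had 3 or more, up to 7. The 87 lay in 64 LTRs, of which 49 had 1. In 26 LTRs some positions were lower in sperm and others lower in tail, and 121 LTRs had no called position. In the 255 LTRs with 3 or more of the 2261 positions, the median SD within an LTR was 0.0846 in sperm and 0.0716 in tail. The SD between all 269 LTRs, from their levels over well-covered positions, was 0.0893 in sperm and 0.0614 in tail.

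Only 15 positions in sperm and 11 in tail were at or under 0.2, and 2 of these were so in both. In the 5' IAPLTR2 LTR at chr1:112568997-112569470 the CpG at base 464 was methylated in 12 of 306 sperm calls and 260 of 260 tail calls. In the 3' IAPLTR2 LTR at chr1:144390918-144391363 the CpG at base 436 was methylated in 1 of 61 sperm calls and 60 of 61 tail calls, and the next one, at base 438, in 1 of 62 sperm calls and 59 of 60 tail calls. This LTR had a level of 0.688 in sperm, against 0.868 in tail. In the 5' IAPLTR2 LTR at chr1:180612083-180612560 the CpG at base 451 was methylated in 547 of 736 sperm calls and 16 of 118 tail calls. These were picked for their size after their values were seen.

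Most measured CpGs recur at the same places in many copies. Grouped by the 6 bases around them, with at least 40 positions a group, 1879 of the 2261 positions (83.1%) fell at 5 upstream and 8 downstream sites. This grouping was chosen after the values were seen, and the levels by site are a description. At the upstream sites near bases 12, 24, 27 and 40 the medians were 0.942, 0.909, 0.922 and 0.915 in sperm and 0.921, 0.898, 0.899 and 0.909 in tail. Sperm was below tail in 43.0%, 48.8%, 36.0% and 47.4% of their copies.

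The CpG near base 80, in TGCGCA, stood lower in sperm. Its median was 0.840 in sperm and 0.919 in tail over 187 copies, with quartiles of 0.701 and 0.953 in sperm and 0.877 and 0.956 in tail. Sperm was below tail in 130 of 187 copies, and 39 copies (20.9%) were called lower in sperm, against 10.2% of all positions, while 3 were called lower in tail. Median calls were 601 in sperm and 459 in tail. The levels split by type. Solo LTRs had 0.928 in sperm and 0.923 in tail as medians, with 43 of 90 copies lower in sperm and 5 called so. In 5' LTRs it was 0.792 in sperm and 0.940 in tail, with 41 of 49 copies lower in sperm and 15 called. In 3' LTRs it was 0.710 in sperm and 0.891 in tail, with 46 of 48 copies lower in sperm and 19 called. In each subfamily the 3' LTRs had the lowest sperm medians at this site: 0.741 in sperm and 0.910 in tail for IAPLTR2 (n = 24), 0.743 and 0.875 for IAPLTR2a (n = 10) and 0.680 and 0.887 for IAPLTR2b (n = 14). The neighbouring site was close to equal in both libraries. In the 46 3' LTRs that had both sites, the CpG near base 40 had a median of 0.886 in sperm against 0.885 in tail, and the CpG near base 80 was the lower of both in 43 LTRs in sperm and in 20 in tail. In the 71 solo LTRs with both sites it was the lower in 42 in sperm and in 36 in tail. In IAPLTR1 and IAPLTR1a the same site had medians of 0.946 in sperm and 0.937 in tail in solo LTRs (n = 20), 0.880 and 0.944 in 5' LTRs (n = 111) and 0.857 and 0.927 in 3' LTRs (n = 76). The string TGCGCA, which reads the same on both strands, was found in 202 of the 269 LTRs (75.1%) and in 65.8% of all 765 LTRs.

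**Figure D3:**
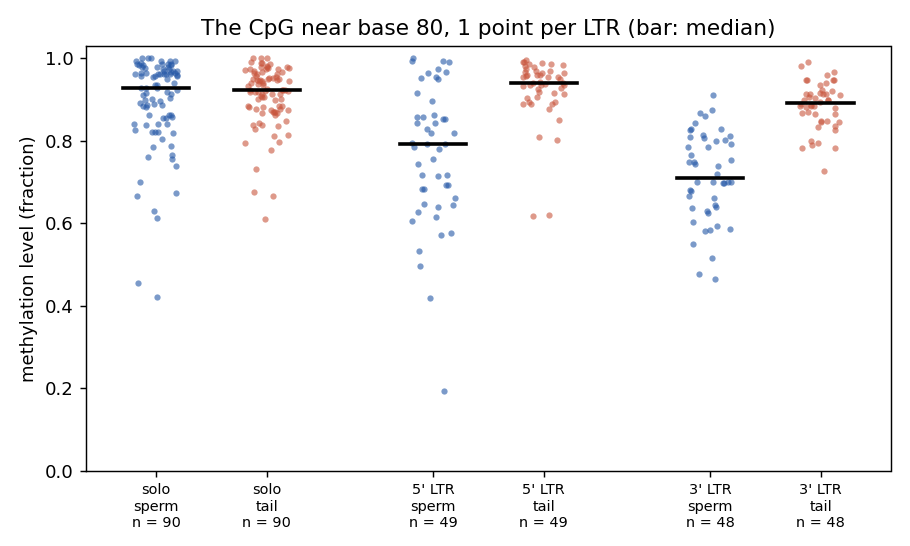
Methylation level as a fraction at the CpG near base 80 (within TGCGCA) of each LTR, for sperm and tail in solo, 5' and 3' LTRs, with 1 point per LTR and a bar at the median. Sperm medians are 0.928, 0.792 and 0.710 in solo, 5' and 3' LTRs, and tail medians 0.923, 0.940 and 0.891.

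The downstream sites showed a split by type as well. Counted from the end of the last IAP-BS2 site, the CpGs 2 and 37 bases on had medians of 0.920 and 0.948 in sperm and 0.948 and 0.960 in tail. The CpG 24 bases on was lower, at 0.826 in sperm and 0.887 in tail. In 5' LTRs it was at 0.598 in sperm and 0.774 in tail, with 28 of 32 positions lower in sperm, against 0.918 in sperm and 0.905 in tail in solo LTRs, with 36 of 75 lower in sperm. In 3' LTRs it was at 0.808 in sperm and 0.891 in tail. The CpG 15 bases on was at 0.744 in sperm and 0.773 in tail in 5' LTRs and at 0.928 and 0.902 in solo LTRs, so that in 5' LTRs it was low in both libraries. The CpGs 49 and 51 bases on, at the very end of the LTR, were at 0.833 and 0.843 in sperm and 0.938 and 0.920 in tail in 5' LTRs, and between 0.955 and 0.963 in both libraries in solo LTRs.

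**Figure D4:**
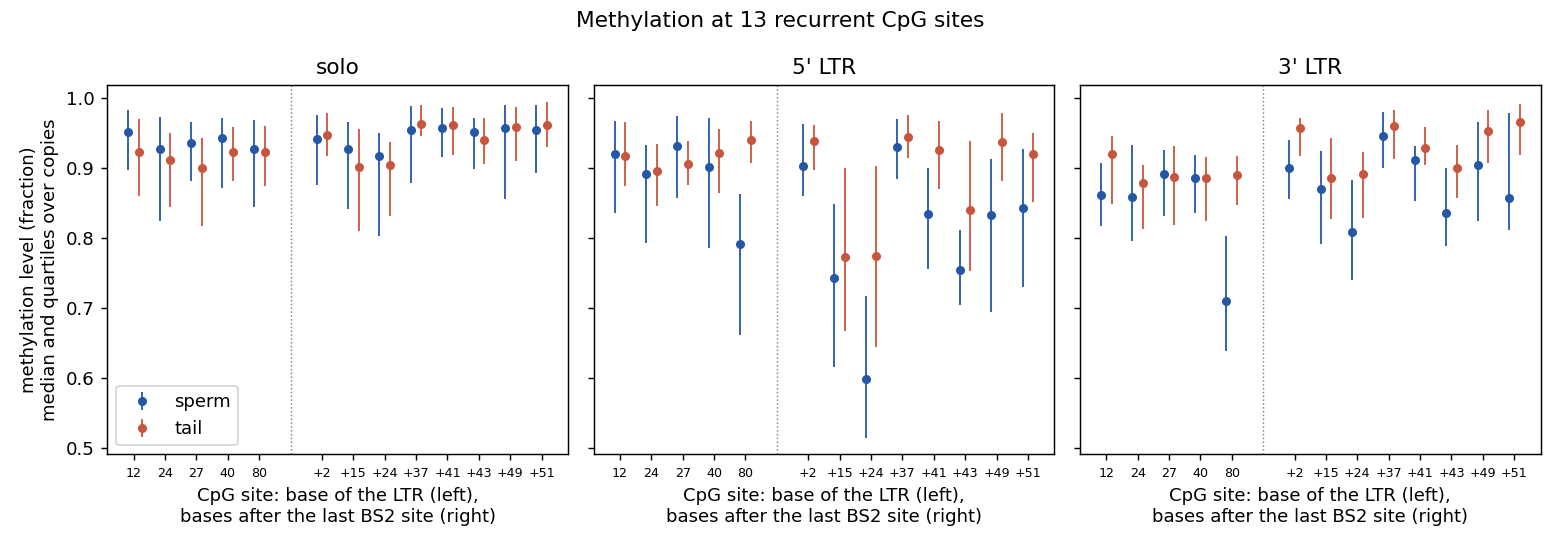
Median methylation level as a fraction, with quartiles over copies as bars, at 13 recurrent CpG sites in sperm and tail, in panels for solo, 5' and 3' LTRs; sites are given by base of the LTR at the upstream end and by bases after the last IAP-BS2 site at the downstream end. Sperm and tail lie close in solo LTRs, with the sperm median the higher at the upstream sites. In 5' and 3' LTRs sperm lies lower near base 80 and at several downstream sites, among them the one 24 bases after IAP-BS2 in 5' LTRs.

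Levels were also taken over whole ends. In 5' LTRs the downstream end, which faces the internal part, was at 0.849 in sperm and 0.924 in tail, and 65 of its 364 positions (17.9%) were called lower in sperm. The outer, upstream end of 5' LTRs was at 0.888 in sperm and 0.917 in tail, with 29 of 223 positions (13%) called. In 3' LTRs the inner, upstream end was at 0.855 in sperm and 0.885 in tail, with 23 of 184 (12.5%) called. Their outer end was at 0.896 and 0.936, with 36 of 328 (11%) called. Sperm was below tail at 70.3% of inner and 57.8% of outer positions in 5' LTRs. In 3' LTRs the shares were close, at 64.7% of inner and 66.8% of outer positions. In solo LTRs 22 of 436 upstream positions (5.05%) and 55 of 721 downstream positions (7.63%) were called lower in sperm. Called lower in tail were 27 upstream (6.19%) and 25 downstream positions (3.47%), against 3.86% of all positions. The upstream end of solo LTRs was at 0.936 in sperm and 0.914 in tail, with sperm below tail at 39.2% of positions. All shares called lower in sperm were above the 10.2% of all positions in LTRs of elements, and below it in solo LTRs.

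The levels of the 5' and the 3' LTR of an element went together weakly at most. In 61 elements both LTRs were measured, and the median absolute difference was 0.0627 in sperm and 0.0620 in tail. The 5' LTR was the lower in 32 elements in each library, or in 37 in sperm and 34 in tail over well-covered positions. In the plus-strand elements listed at chr1:108945139-108960585 and chr1:108948689-108957214, the LTR listed as 5' lay downstream of the one listed as 3'. These were kept among the 61. So was the element at chr10:6566704-6571592, with an IAPLTR2 5' LTR and an IAPLTR2a 3' LTR. Spearman's rho between the 5' and the 3' level was 0.16 in sperm and -0.17 in tail, or 0.29 and 0.10 over well-covered positions, as a description over 61 elements of 2 libraries. The elements with the largest differences in sperm were the one at chr1:31470038-31473852 described before, an IAPLTR2b element at chr1:79018812-79023248 with 0.880 in its 5' and 0.658 in its 3' LTR, and an IAPLTR2 element at chr1:47786669-47790986 with 0.891 in its 5' and 0.687 in its 3' LTR. The IAPLTR2b element lies in an intron of the gene model Gm29536. Over well-covered positions its 3' LTR was at 0.930 in sperm, and the 3' LTR of the IAPLTR2 element at 0.764. In tail the largest differences were at the elements at chr1:21581627-21585044 and chr10:15179873-15183701, whose 3' LTRs were described before, and at chr1:166581133-166584582, with 0.973 in the 5' and 0.743 in the 3' LTR of an IAPLTR2b element. On well-covered positions that 3' LTR was at 0.891 in tail.

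Over the 269 LTRs together, simple features of a copy went along with its level only weakly. By the plain mean, Spearman's rho of the level with divergence was -0.08 in sperm and 0.00 in tail, with the number of CpGs 0.05 and 0.04, and with length 0.01 and -0.04. It was 0.17 in sperm and 0.00 in tail with the number of calls. The sperm and tail levels of an LTR correlated at 0.20, or 0.28 over well-covered positions. Within 1 type the values on well-covered positions reached 0.45, for divergence with the tail level of the 65 3' LTRs, against 0.20 by the plain mean. These are descriptions across LTRs of the same 2 libraries, which share sequence and depth.

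Short promoter strings were searched on both strands. GGGCGG, the core of the box bound by Sp1, was found in 220 of 269 LTRs (81.8%) and in 59.2% of all 765 LTRs. By subfamily the share was 88.0% in IAPLTR2, 96.2% in IAPLTR2a and 66.7% in IAPLTR2b. It was 82.7% in IAPLTR2a2 and 39.7% in IAPLTR1 and IAPLTR1a copies. TGACGTCA, the cyclic AMP response element, was found in 12 of 269 (4.46%) and in 32.4% of all LTRs, of which 236 of 300 IAPLTR1 and IAPLTR1a copies. AATAAA, the polyadenylation signal, was found in 263 of 269 (97.8%) and in 98.3% of all. IAP-BS2 itself holds this string, and 266 of the 269 LTRs had a site for it, so the share is not independent of the primer. Over well-covered positions, LTRs with GGGCGG were at 0.872 in sperm and 0.904 in tail by their medians, and those without it 0.875 and 0.904. The 12 LTRs with TGACGTCA had medians of 0.830 in sperm and 0.942 in tail, against 0.875 and 0.903 in the others. A match is a description of the letters and not a binding site.

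By place, 209 LTRs lay between genes, 56 in introns and 4 overlapped an exon in the GENCODE M21 annotation. The median level between genes was 0.852 in sperm and 0.893 in tail, and in introns 0.894 and 0.897. Over well-covered positions it was 0.862 in sperm and 0.902 in tail between genes, and 0.911 and 0.913 in introns. The part of LTR type in these values was not tested. Inside protein-coding genes, 36 LTRs lay on the strand opposite to the gene and 5 on the same strand. The 15 LTRs within 10000 bp of the start of a protein-coding gene had medians of 0.925 in sperm and 0.910 in tail.

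The libraries themselves could be checked only thinly. On the mitochondrial genome, where methylation calls mark failed conversion, 5 of 71 calls were methylated in sperm (7.04%, 95% Clopper-Pearson interval 2.33 to 15.7%) and 8 of 1277 in tail (0.626%, 0.271 to 1.23%). Of 14 promoters of imprinted and germline genes, 3 had 20 or more calls in sperm and 4 in tail. In sperm these were Peg3 (0 of 29 calls methylated), Zrsr1 (1 of 87) and Dazl (0 of 20). In tail they were Kcnq1ot1 (3 of 30), Plagl1 (5 of 24), Zrsr1 (0 of 52) and Inpp5f (15 of 47).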

How the data were processed

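TEPBAT libraries from sperm and tail DNA of 1 mouse, 1 per tissue, were used. The authors mapped trimmed read pairs to mm10 with Bismark (version not given in the sources used here), discarded pairs with several hits, and deposited for each CpG position and strand the percent methylation and counts of the calls of either kind. The deposited counts were used and the percent column was not. LTRs came from the study's supplementary list, held here in part (1997 rows), with starts shifted to count from 1.

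A level is the unweighted mean over all covered CpG positions of an LTR. LTRs were kept at 20 or more calls in each library. Fisher's exact test (two-sided; scipy 1.17.1, Python 3.11.15) with Benjamini-Hochberg adjustment was run over all 765 LTRs and over all 5599 positions with 20 calls in both libraries, and the code was tested on simulated calls. A call needs an adjusted p under 0.05 and a difference of 0.2. Primer sites were searched with up to 4 mismatches, and intervals are 95% Wilson or Clopper-Pearson. LTRs are named for the 5 largest called differences in each direction and the 5 lowest levels in each library (at least 100 calls in both), the 3 largest 5' to 3' differences in each library, the 3 highest levels (1000 calls), and the most calls in each subfamily, with further copies chosen after their values were seen. The LTRs, lists and tests were chosen with earlier results of these data known. Alternatives were other call minimums, summed calls, positions with 5 calls, merged strands, intervals shortened by 20 bp and other limits.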

Additional observations from a re-analysis of the deposited data

How the results depend on the processing

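No paired analysis was possible because each tissue has 1 library. The counts and medians over the 269 LTRs and their positions gave 66 values under alternatives, of which 38 stayed close to the first value and 28 moved. The cause was not tested except where the setting itself sets the value.

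The counts move with the limits. At a minimum difference of 0.1, 48 LTRs were lower in sperm and 12 in tail, and 506 positions were lower in sperm and 223 in tail. At 0.3 there were 2 LTRs and 1 LTR, and 123 and 33 positions. At or under 0.75 lay 44 LTRs in sperm and 19 in tail, and at or under 0.85 lay 120 and 88. With a minimum of 100 calls, 51 positions were lower in tail.

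The other moves were nearly all in tail values. With the level from summed calls, 1 LTR was lower in tail, 12 were at or under 0.8 in tail, and the median was 0.888 for sperm and 0.913 for tail. With positions of at least 5 calls, 1 was lower in tail and 18 were at or under 0.8 in tail. With at least 5 calls in both libraries, 1 was lower in tail, 15 were at or under 0.8 in tail and the tail median was 0.904. With such positions on the primer-read sides alone, an alternative chosen after seeing the data, 1 was lower in tail, 15 were at or under 0.8 in tail and the tail median was 0.905. With intervals shortened by 20 bp, 9 were lower in tail, 81 were at or under 0.8 in sperm and 60 in tail, and the tail median was 0.882. The number of LTRs lower in sperm was 12 to 16 under all settings that kept the minimum difference.

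With 1 library per tissue, replicate error is unknown, and intervals cover counting error only, with calls taken as if independent. Nearly all calls lie in the LTR ends. The list was held in part, so counts hold for chromosome 1 and the start of chromosome 10.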
